A study of Homo sapiens with 12 samples.

Results

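The platelet-derived growth factor (PDGF) family consists of the ligand genes PDGFA, PDGFB, PDGFC and PDGFD and the receptor genes PDGFRA and PDGFRB. These 6 genes were taken by symbol from a table of 55773 gene entries, and all 6 were among the 15691 genes with enough counts to be tested. Expression was measured by poly(A) RNA sequencing in RBE cells, an established human cholangiocarcinoma line with mutant IDH1, in 12 libraries. The vehicle group had DMSO for 22 days and then DMSO again, and the vehicle_Nutlin group had DMSO for 22 days and then 5 µM Nutlin for 72 hours. The AG120 group had 5 µM AG-120 for 22 days and then DMSO, and the AG120_Nutlin group had the same AG-120 treatment and then 5 µM Nutlin for 72 hours. AG-120 inhibits mutant IDH1 and blocks its product 2-hydroxyglutarate, and Nutlin inhibits MDM2 and so activates p53. Each group held 3 libraries of this single line. The labels do not say whether these came from separate cultures, so the spread between them may be technical. The 6 genes were chosen by symbol with measured values in view, namely their levels and fold changes over these same 4 groups, so their levels, fold changes, intervals and calls are a description and support nothing by themselves. No p-value is given for them.

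PDGF ligands are secreted dimers that bring together a pair of receptor tyrosine kinases, which then phosphorylate each other and recruit SRC, phosphatidylinositol 3-kinase, phospholipase C gamma and the RAS pathway. PDGF-A and PDGF-B are processed inside the cell by proprotein convertases, whereas PDGF-C and PDGF-D carry a CUB domain that proteases such as tPA and uPA remove outside the cell. In liver and bile duct tumours the receptors are best known from stellate cells and fibroblasts, and PDGF-D released by cholangiocarcinoma cells is known to draw in fibroblasts.

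The promoters of both receptor genes are shown because PDGFRB had the largest Nutlin change of the family and both receptors were called for AG-120 with Nutlin. The windows run from 250 bases before to 50 bases after an annotated start, are read 5′ to 3′ on the strand of the gene, and come from RefSeq on GRCh38.p14. Capitals mark the letters CCAAT, the core of the element that the factor NF-Y binds. The first window is PDGFRB, chr5:150155796-150156095 on the minus strand. The others are 2 annotated starts of PDGFRA on the plus strand, the upstream start at chr4:54229043-54229342 and the downstream start at chr4:54233710-54234009.
PDGFRB: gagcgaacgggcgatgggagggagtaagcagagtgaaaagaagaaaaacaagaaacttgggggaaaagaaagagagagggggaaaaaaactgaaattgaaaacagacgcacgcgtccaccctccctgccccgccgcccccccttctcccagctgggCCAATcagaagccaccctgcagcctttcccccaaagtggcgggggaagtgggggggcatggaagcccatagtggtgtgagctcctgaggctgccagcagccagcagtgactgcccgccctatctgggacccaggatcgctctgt
PDGFRA upstream start: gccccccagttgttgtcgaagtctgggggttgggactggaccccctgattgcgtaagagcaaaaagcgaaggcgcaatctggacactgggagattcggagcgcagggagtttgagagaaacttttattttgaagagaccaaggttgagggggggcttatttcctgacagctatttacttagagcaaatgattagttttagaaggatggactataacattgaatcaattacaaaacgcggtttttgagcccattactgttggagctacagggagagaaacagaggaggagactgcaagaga
PDGFRA downstream start: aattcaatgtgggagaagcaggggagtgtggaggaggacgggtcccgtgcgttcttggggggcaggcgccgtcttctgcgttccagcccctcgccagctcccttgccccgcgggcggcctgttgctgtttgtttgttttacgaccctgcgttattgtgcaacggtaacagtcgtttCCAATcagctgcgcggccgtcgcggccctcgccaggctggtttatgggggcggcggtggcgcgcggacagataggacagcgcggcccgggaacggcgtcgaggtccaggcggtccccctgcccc

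The letters CCAAT were searched on both strands of each window, as were the core that SP1 binds, GGGCGG, and the letters of the usual TATA box, TATAAA. No match of one overlapped a match of another. CCAAT began 94 bases before the start in PDGFRB and 74 bases before the downstream start of PDGFRA, and the window at the upstream start held none of the 3 motifs. Among 35116 promoter windows of 300 bases, 34.6% held CCAAT, while the SP1 core was in 45.0% and the TATA box letters in 11.5%. The table held 8 windows for 4 of the 6 genes, with no entry for PDGFB and PDGFC. PDGFA had 4 windows, 1 of them with a CCAAT 137 bases before its start, and PDGFD had 1 window without CCAAT. The TATA box letters were in none of the 8 windows. A match is a description of these letters, not of a bound site.

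Library totals ran from 16840161 to 27499433 counts. MDM2 and CDKN1A, both direct targets of p53, checked the Nutlin labels: MDM2 lay between 141 and 194 CPM (the count of a gene scaled to the size of its library) in all 6 libraries without Nutlin and between 2105 and 3481 CPM in all 6 with it. CDKN1A ran from 371 to 489 CPM and from 7833 to 10396 CPM in the same sets. All 8 biliary epithelial markers on the list (KRT7, KRT19, KRT8, KRT18, EPCAM, SOX9, CDH1 and ANXA4) held counts in every group. Endothelial markers summed to at most 1.35 CPM in any library, leukocyte and platelet markers to at most 1.16 and hepatocyte markers to at most 3.05. Libraries spread most in vehicle_Nutlin, where 7.41%, 11.36% and 15.13% of genes in replicates 1, 2 and 3 lay over 2-fold from the other libraries of the group. The share was 4.97% in AG120 replicate 1 and 1.63% to 3.16% elsewhere. By the chi-square of their counts per gene, vehicle_Nutlin replicates 1 and 2 were closer to each other (24.6) than to replicate 3 (115.1 and 142.5), and AG120 replicates 2 and 3 (9.14) closer than either was to replicate 1 (29.9 and 46.2). Values without vehicle_Nutlin replicate 3 and AG120 replicate 1 are given below wherever a call changes, a choice made after seeing the data.

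Levels are CPM scaled by trimmed mean of M values, and each change is a log2 fold change with its standard error (SE) from an edgeR quasi-likelihood model of all genes. Calls were made at a Benjamini-Hochberg adjusted p, over all tested genes, of 0.05 or less. To set genes beside each other, levels were divided by the exon length of the gene (GENCODE 29, not the authors' annotation). In vehicle, PDGFB had the highest level at 14.2 CPM per kb, followed by PDGFC at 10.2, PDGFA at 3.11, PDGFRB at 2.28, PDGFRA at 1.26 and PDGFD at 0.341 CPM per kb. The libraries of no 2 neighbours in that order overlapped. Ranks and shares per kb depend on the length used: without it PDGFC, at 56.9 CPM, was above PDGFB, at 53.4, in vehicle. Those of the receptors also rest on the PDGFRA level, which is uncertain for a reason given below. The exon length of PDGFA was 4151 bases and its longest transcript 2305, and for PDGFRA these were 9732 and 6576. RBE cells thus held mRNA of all 4 ligands and of both receptors, with ligand mRNA B and C above that of either receptor. In AG120_Nutlin the order was PDGFC at 8.39 CPM per kb, PDGFA at 5.64, PDGFB at 3.45, PDGFD at 0.427, PDGFRA at 0.334 and PDGFRB at 0.227, so that the receptor with more mRNA in vehicle came last. There PDGFD, at 0.297 to 0.592 CPM per kb, overlapped PDGFRA, at 0.314 to 0.359.

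**Figure D1:**
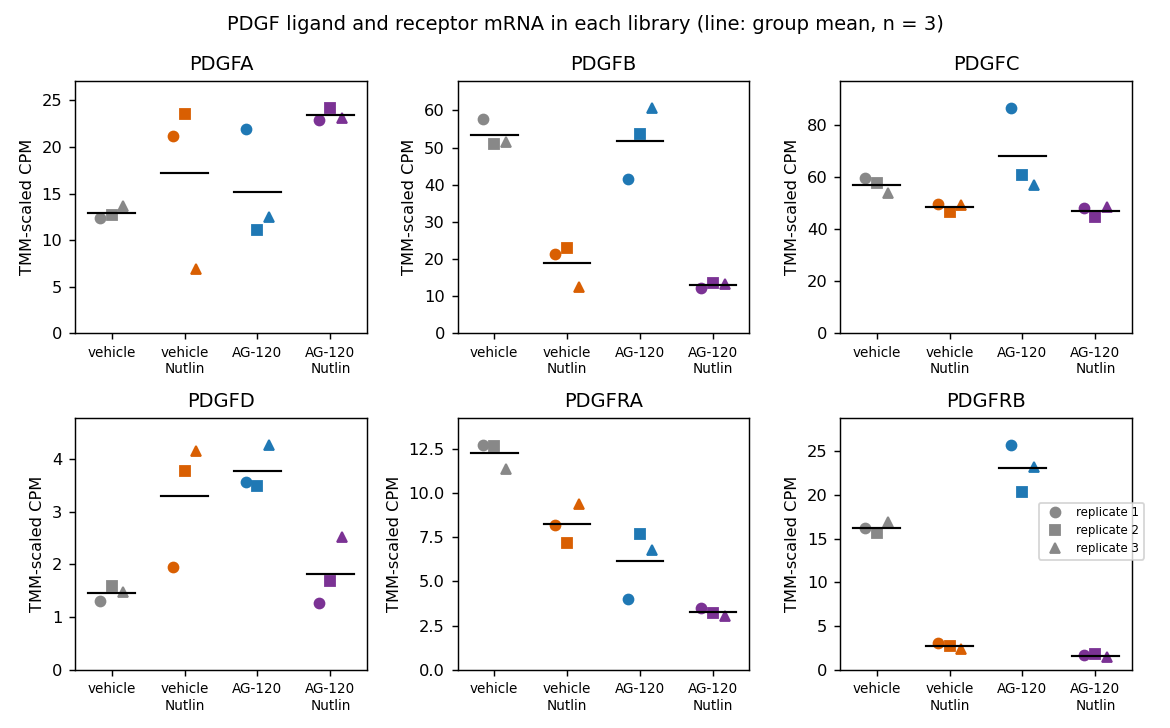
TMM-scaled CPM of the 6 genes (vertical axes, each from 0) in the 4 groups, with 1 symbol per library and a line at the group mean (n = 3). PDGFRB lies below 3.1 CPM in all 6 Nutlin libraries and above 15 CPM in the other 6, while PDGFA in vehicle_Nutlin spreads from 6.88 to 23.6 CPM.

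PDGFRB (hg19 chromosome 5, 149493400 to 149535435) encodes the receptor that binds PDGF-B and PDGF-D best. Its level was 16.2, 15.7 and 16.9 CPM in the vehicle libraries and 3.07, 2.69 and 2.35 CPM in vehicle_Nutlin. It was 25.8, 20.4 and 23.2 CPM in AG120 and 1.69, 1.77 and 1.41 CPM in AG120_Nutlin. No 2 groups overlapped, and their order was AG120, vehicle, vehicle_Nutlin, AG120_Nutlin, so that AG-120 libraries were highest without Nutlin and lowest with it. PDGFRB fell 6.04-fold with Nutlin in vehicle cells (log2 -2.59, SE 0.15, 95% interval -2.91 to -2.27) and 14.2-fold in AG-120 cells (-3.82, SE 0.16, -4.17 to -3.48). The AG120_Nutlin values rest on 24 to 36 counts per library, and the lowest of them, 1.41 CPM, has an exact 95% Poisson interval of 0.903 to 2.10 CPM, which covers counting error only. In bulk RNA, fewer cells expressing a gene and less RNA per cell cannot be told apart.

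The drop was larger after AG-120 by 1.23 on the log2 scale (log2 difference -1.23, SE 0.22, 95% interval -1.70 to -0.76), which was called. PDGFRB was also called lower in AG120_Nutlin than in vehicle_Nutlin (-0.72, SE 0.17, -1.10 to -0.35). Without Nutlin it was higher in AG120 than in vehicle by 0.51 (SE 0.13, 0.23 to 0.79) with no overlap of the libraries, but was not called. The difference between the Nutlin responses was called in 4 of the 12 fits that left out 1 library (those without vehicle_Nutlin replicate 1 or 3 or AG120 replicate 1 or 2), with values from -1.33 to -1.13. The AG-120 effect with Nutlin was called in 2 of the 12 (those without vehicle_Nutlin replicate 3 or AG120 replicate 1), with values from -0.82 to -0.62. Both Nutlin responses were called in all 12. Without vehicle_Nutlin replicate 3 and AG120 replicate 1 together, PDGFRB kept all 3 calls with Nutlin and the call of the difference (-1.23), and without vehicle_Nutlin replicate 2 as well it was also called for AG-120 without Nutlin, at 0.42.

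PDGFRB is a marker of fibroblasts and mural cells, so the listed markers of those cells were read beside it. DCN and LUM had 0 counts in every library, and FAP had 1 and COL3A1 had 2 counts over all 12. The 14 markers summed to 231 to 239 CPM in vehicle, 125 to 146 in vehicle_Nutlin, 263 to 273 in AG120 and 99.9 to 109 in AG120_Nutlin, so the sum moved in the same order of groups as PDGFRB. Its part in the PDGFRB values was not tested. MCAM, an adhesion molecule, made up most of the sum without Nutlin, at a mean of 176 CPM in vehicle and 204 in AG120. With Nutlin it was below the other markers together, at 60.4 CPM in vehicle_Nutlin and 39.6 in AG120_Nutlin. Of 9 tested markers 6 were called lower and 3 higher with Nutlin in vehicle cells, and 6 lower and 2 higher in AG-120 cells. Over all tested genes 27.1% were called lower and 26.8% higher in vehicle cells, and 28.8% and 27% in AG-120 cells. DES and THY1, at 0.0176 and 0.273 CPM in vehicle_Nutlin, had enough counts to be tested only through the groups without Nutlin, so the filter partly sets these counts. COL1A1 went from 21.0 to 0.947 CPM with Nutlin in vehicle cells, whereas ACTA2, smooth muscle actin, went from 6.94 to 45.6 CPM and the pericyte proteoglycan gene CSPG4 from 0.964 to 5.98.

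PDGFRA (hg19 chromosome 4, 55095264 to 55164414) encodes the receptor that binds PDGF-A, PDGF-B and PDGF-C. Its level was 12.7, 12.7 and 11.3 CPM in vehicle and 8.20, 7.18 and 9.35 CPM in vehicle_Nutlin. It was 4.02, 7.65 and 6.80 CPM in AG120 and 3.49, 3.20 and 3.06 CPM in AG120_Nutlin. All vehicle libraries lay above all others and all AG120_Nutlin libraries below, while vehicle_Nutlin and AG120 overlapped. PDGFRA fell with Nutlin by 0.56 (log2 -0.56, SE 0.20, 95% interval -0.998 to -0.132) in vehicle cells and by 0.92 (-0.92, SE 0.22, -1.39 to -0.44) in AG-120 cells. The entry of FIP1L1, a gene for an mRNA 3′ end processing factor, covers 95.7% of the PDGFRA entry in the authors' table. How reads in the shared stretch were counted is not given in the sources used here, so the PDGFRA level is uncertain. FIP1L1 itself was not called in any of the 5 comparisons.

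The PDGFRA libraries with AG-120 lay below those without it, both with and without Nutlin. With Nutlin the gene was lower in AG120_Nutlin than in vehicle_Nutlin by 1.35 (log2 -1.35, SE 0.22, 95% interval -1.82 to -0.87), which was called. Without Nutlin the value was -0.99 (SE 0.20, -1.43 to -0.55), with no overlap of the libraries but no call. The difference between the 2 Nutlin responses was -0.35 (SE 0.30, -0.99 to 0.29) and was not called. The Nutlin response in vehicle cells was called in 8 of the 12 fits that left out 1 library and lost without vehicle replicate 1 or 2 or vehicle_Nutlin replicate 1 or 2. The AG-120 effect with Nutlin was lost without AG120_Nutlin replicate 2 or 3, at -1.33 and -1.31, and in a fit of only the 2 groups. Without vehicle_Nutlin replicate 3 and AG120 replicate 1, the AG-120 value without Nutlin was -0.76 and was called.

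The balance of receptor mRNA differed between libraries with and without Nutlin. Per kb of exon, PDGFRB made up 62.9% to 67.0% of the sum of both receptors in vehicle and 25.5% to 33.8% in vehicle_Nutlin. The share was 78.4% to 89.7% in AG120 and 38.6% to 43.0% in AG120_Nutlin. By these values PDGFRB mRNA was the more abundant in every library without Nutlin and PDGFRA mRNA in every library with it. The PDGFRA level is uncertain because of the FIP1L1 entry over it, so these shares and which receptor was the more abundant are uncertain too. The AG-120 libraries had the higher PDGFRB share on either side of that divide.

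**Figure D2:**
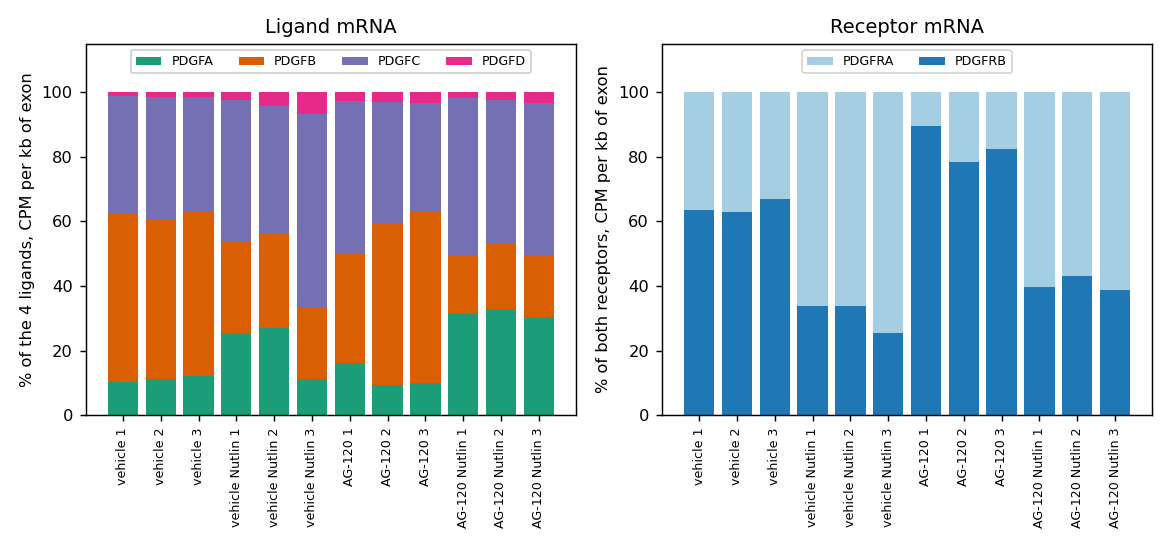
Share of each ligand in the sum of the 4 ligands (left) and of each receptor in the sum of both (right), in percent of CPM per kb of exon, with 1 bar per library. PDGFRB takes 62.9% or more of receptor mRNA in the 6 libraries without Nutlin and 43.0% or less in the 6 with it. The receptor shares are uncertain because the FIP1L1 entry covers 95.7% of the PDGFRA entry.

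PDGFB (hg19 chromosome 22, 39619364 to 39640756) encodes the B chain, which binds both receptors. Its level was 57.7, 50.8 and 51.6 CPM in vehicle and 21.2, 23.0 and 12.3 CPM in vehicle_Nutlin. It was 41.4, 53.5 and 60.6 CPM in AG120 and 12.05, 13.6 and 13.3 CPM in AG120_Nutlin. The 6 Nutlin libraries all lay below the other 6, and within each of these sets the vehicle and AG-120 libraries overlapped. PDGFB fell 2.84-fold with Nutlin in vehicle cells (log2 -1.51, SE 0.20, 95% interval -1.94 to -1.07) and 3.99-fold in AG-120 cells (-2.00, SE 0.21, -2.44 to -1.55). Both were called in all 12 fits that left out 1 library. The AG-120 values, -0.04 (SE 0.19) without Nutlin and -0.53 (SE 0.21, 95% interval -0.98 to -0.09) with it, were not called. Without vehicle_Nutlin replicate 3 and AG120 replicate 1, the value with Nutlin was -0.75 and the difference between the Nutlin responses -0.85, against -0.49 with all libraries, and both were then called lower.

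PDGFA (hg19 chromosome 7, 536895 to 559933) encodes the A chain, a ligand of PDGFRA. Its level was 12.4, 12.7 and 13.7 CPM in vehicle and 21.2, 23.6 and 6.88 CPM in vehicle_Nutlin. It was 21.9, 11.03 and 12.5 CPM in AG120 and 22.9, 24.2 and 23.1 CPM in AG120_Nutlin. One vehicle_Nutlin library, replicate 3, lay below every vehicle library while the other two lay above, and AG120 replicate 1 lay apart from the rest of its group. The change with Nutlin was 0.40 (SE 0.36, 95% interval -0.37 to 1.18) in vehicle cells and 0.62 (SE 0.35, -0.14 to 1.39) in AG-120 cells, and neither was called. Without vehicle_Nutlin replicate 3 the first was 0.78, and without AG120 replicate 1 the second was 0.99, and each was then called higher. The deviation of a library from the others of its group went with the exon length of the gene in all libraries of these 2 groups. Within a group these deviations are linked, since an odd library shifts those of the others the opposite way. The Spearman correlation across genes, which are not independent, was 0.279, 0.184 and -0.296 in vehicle_Nutlin replicates 1, 2 and 3 and 0.345, -0.205 and -0.329 in AG120 replicates 1, 2 and 3, against -0.092 to 0.073 elsewhere. With the GC content of the longest transcript it was 0.121, 0.232 and -0.232 in vehicle_Nutlin and -0.021, -0.044 and 0.072 in AG120. Elsewhere it ran from -0.224 to 0.21. PDGFA deviated by -1.691 on the log2 scale in vehicle_Nutlin replicate 3 and by 0.895 in AG120 replicate 1. PDGFRA, with the longest exon length of the family, deviated by 0.277 and -0.831 in the same libraries. The part of length or GC content in the PDGFA values was not tested.

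PDGFC (hg19 chromosome 4, 157681606 to 157892546) encodes a CUB-domain ligand of PDGFRA. Its level was 59.7, 57.4 and 53.7 CPM in vehicle and 49.4, 46.5 and 49.3 CPM in vehicle_Nutlin. It was 86.4, 60.6 and 56.8 CPM in AG120 and 47.9, 44.5 and 48.4 CPM in AG120_Nutlin. PDGFC had the narrowest range of the family relative to its level, and only AG120 replicate 1 was far from the other libraries. Nutlin libraries were lower without overlap on both backgrounds, by -0.23 (SE 0.14, 95% interval -0.53 to 0.06) in vehicle cells, not called, and by -0.53 (SE 0.14, -0.83 to -0.24) in AG-120 cells, called. Without AG120 replicate 1 the latter was -0.32 and was still called. Without vehicle_Nutlin replicate 3 as well, the value in vehicle cells was -0.27 and was called.

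PDGFD (hg19 chromosome 11, 103777914 to 104035107) encodes the other CUB-domain ligand, which acts through PDGFRB. It had the fewest counts of the family, 21 to 97 per library. Its level was 1.30, 1.58 and 1.48 CPM in vehicle and 1.96, 3.77 and 4.14 CPM in vehicle_Nutlin. It was 3.55, 3.48 and 4.27 CPM in AG120 and 1.26, 1.67 and 2.53 CPM in AG120_Nutlin. All vehicle_Nutlin and AG120 libraries lay above the vehicle libraries, and AG120_Nutlin overlapped vehicle. PDGFD was called higher with Nutlin in vehicle cells (log2 1.18, SE 0.31, 95% interval 0.51 to 1.85) and lower with Nutlin in AG-120 cells (-1.04, SE 0.30, -1.70 to -0.38).

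Of 7051 genes called in both Nutlin responses, 13 were called in opposite directions, which is 0.0829% of all tested genes, and PDGFD was among the 10 of these that were higher in vehicle cells and lower in AG-120 cells. The difference between the responses was the largest of the 6 genes at -2.22 (SE 0.43, 95% interval -3.16 to -1.29), but it was not called by edgeR. DESeq2 called it, as it did 1.29% of all genes. Without Nutlin PDGFD was higher in AG120 than in vehicle by 1.37 (SE 0.31, 0.71 to 2.03), with no overlap and no call. With Nutlin the AG-120 value was -0.86 (SE 0.31, -1.52 to -0.19), not called. The fall in AG-120 cells lost its call without AG120_Nutlin replicate 1, at -0.85. The rise in vehicle cells was called in all 12 fits that left out 1 library, and without vehicle_Nutlin replicate 3 and AG120 replicate 1 it was 0.94 and called. In that fit the AG-120 value without Nutlin (1.41) and the difference (-2.04) were called too. Without vehicle_Nutlin replicate 2 as well, only its lowest library, at 1.96 CPM, was left in that group: the rise was then 0.41 and not called, the AG-120 value with Nutlin -0.09 and the difference -1.503.

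**Figure D3:**
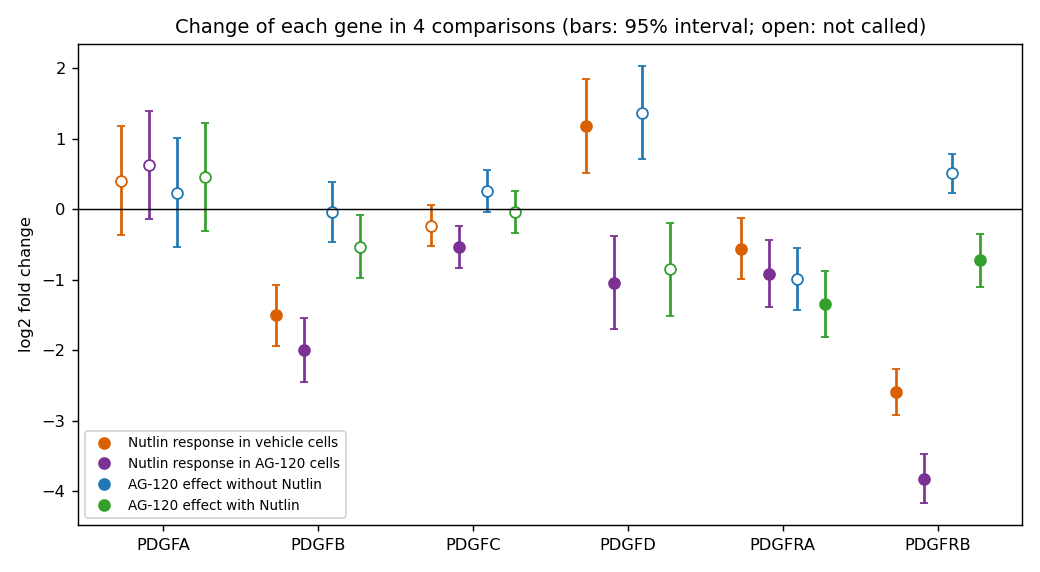
Log2 fold change of each gene in 4 comparisons, with 95% intervals from the edgeR model; filled symbols mark calls and open symbols the rest. PDGFRB has the lowest values of the family in both Nutlin responses, at -2.59 and -3.82, and PDGFD lies on opposite sides of 0 in them.

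Across the family, Nutlin in vehicle cells gave 1 call higher (PDGFD), 3 lower (PDGFRB, PDGFB and PDGFRA) and 2 genes not called, where 53.9% of all tested genes were called, 26.8% higher and 27.1% lower. In 5 of the 6 the libraries did not overlap, against 28.3% of all genes higher and 30.9% lower. In AG-120 cells Nutlin gave no call higher and 5 lower, with PDGFA not called, where 55.7% of genes were called, 27% higher and 28.8% lower. The libraries of all 6 did not overlap there, against 35.1% of genes in each direction. The median log2 fold change of the 6 genes was -0.40 in vehicle cells and -0.98 in AG-120 cells, and that of all genes was -0.02 and 0.00.

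AG-120 without Nutlin gave no call among the 6 genes by edgeR, where 0.051% of all genes were called, all of them higher. At an unadjusted p under 0.05 the count was 3 (PDGFD, PDGFRA and PDGFRB), where 7.99% of all genes passed. These were also the 3 whose libraries did not overlap, against 11.4% of all genes higher and 10.3% lower. DESeq2 called 2 of them, PDGFD higher and PDGFRA lower, and 0.605% of all genes. AG-120 with Nutlin gave 2 calls, both receptors and both lower, where 2.36% of genes were called, 0.433% higher and 1.93% lower. Neither overlapped, against 14.2% of genes higher and 14.1% lower. The difference between the Nutlin responses was called for 1 gene, PDGFRB, on the lower side, where 0.363% of genes were called, 0.0319% higher and 0.331% lower.

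Among the ligands, PDGFB had the largest share in vehicle and PDGFC in vehicle_Nutlin. Per kb, PDGFB made up 49.7% to 52.4% of the ligand sum in vehicle and 22.2% to 29.2% in vehicle_Nutlin, and 33.8% to 53.2% in AG120 and 18.2% to 20.3% in AG120_Nutlin. PDGFA, a ligand of PDGFRA, took 10.2% to 12.3% in vehicle and 30.4% to 32.7% in AG120_Nutlin, with 11.3% to 27.0% in vehicle_Nutlin and 9.31% to 16.2% in AG120. PDGFC took 35.6% to 37.8% in vehicle, 39.6% to 59.9% in vehicle_Nutlin, 33.5% to 47.4% in AG120 and 44.7% to 48.8% in AG120_Nutlin.

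Genes that act with the PDGF family were read from lists chosen with earlier results of these data known, so they are a description beside the family. Over all tested genes, Nutlin raised 26.8% and lowered 27.1% in vehicle cells and raised 27% and lowered 28.8% in AG-120 cells, with median log2 fold changes of -0.02 and 0.00, and the counts below stand beside those. Of all 15691 tested genes, 8464 were called in vehicle cells, 8747 in AG-120 cells and 7051 in both, so most calls recurred on the other background. Among the 11 tested genes for proteases that process the ligands and for co-receptors, 3 were called higher and 5 lower with Nutlin in vehicle cells, and 3 higher and 3 lower in AG-120 cells, with medians of -0.32 and -0.26. PLAT, which encodes the protease tPA that activates PDGF-C, rose by 2.08 in vehicle cells (log2, SE 0.13, edgeR adjusted p = 2.648e-08), from a mean of 14.3 to 60.6 CPM. PCSK6, a proprotein convertase, fell by 1.72 (SE 0.14, edgeR adjusted p = 2.753e-07). NRP1, a co-receptor, went from 311 to 153 CPM (log2 -1.03, SE 0.11, edgeR adjusted p = 3.456e-06), and SPARC, a matrix protein that binds PDGF-B, fell by 0.99 (SE 0.19, edgeR adjusted p = 0.0008129). All 4 were also called in the same direction in AG-120 cells, at 1.78, -1.96, -1.13 and -1.82.

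Close relatives of the receptors were scarce in RBE cells. KIT had 0 counts over the 12 libraries, FLT1 had 3 and KDR had 10. All 3 tested relatives were called lower with Nutlin on both backgrounds, with medians of -3.85 and -2.57. FLT4, near the floor, had means of 0.755 and 0.314 CPM in vehicle and AG120, and 0.0176 and 0.0201 in vehicle_Nutlin and AG120_Nutlin. A gene this scarce is tested only where some group holds enough counts, so the count of 3 is partly set by the filter. CSF1R, the receptor of the macrophage growth factor CSF1, went from a mean of 3.67 to 0.227 CPM in vehicle cells (log2 -3.85, SE 0.60, edgeR adjusted p = 0.0001332), and FLT3 from 2.23 to 0.542 (log2 -2.02, SE 0.35, edgeR adjusted p = 0.0003215). Among 6 related ligands, 5 were called higher and 1 lower with Nutlin on both backgrounds, with medians of 1.02 and 1.33. KITLG, the ligand of KIT, rose from 27.2 to 157 CPM in vehicle cells (log2 2.53, SE 0.15, edgeR adjusted p = 1.844e-08), and PGF, a VEGF relative, rose by 2.90 (SE 0.20, edgeR adjusted p = 7.518e-08). VEGFC, which promotes lymphatic growth, fell by 2.43 (SE 0.24, edgeR adjusted p = 2.113e-06). PDGFB and VEGFC were thus lower with Nutlin while KITLG, PGF and CSF1 were higher.

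Of 29 tested genes for signalling next to the receptors, 13 were called higher and 7 lower in each Nutlin response, 12 and 7 of them on both backgrounds, with medians of 0.03 and 0.03. PIK3R3, a regulatory subunit of phosphatidylinositol 3-kinase, rose by 2.47 in vehicle cells (log2, SE 0.10, edgeR adjusted p = 4.835e-10), and HRAS, a RAS family switch, by 1.83 (SE 0.09, edgeR adjusted p = 2.124e-09). RASA1, which turns RAS off and docks on PDGFRB, fell by 1.21 (SE 0.09, edgeR adjusted p = 2.06e-07). Of 14 negative regulators, 3 were called higher and 7 lower in vehicle cells and 4 higher and 7 lower in AG-120 cells, with medians of -0.25 and -0.24. SOCS3 fell by 1.52 (SE 0.12, edgeR adjusted p = 3.773e-07), and CBLB, a ubiquitin ligase of tyrosine kinases, rose by 0.99 (SE 0.14, edgeR adjusted p = 7.286e-05).

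Of 16 immediate early genes, which growth factors switch on within minutes, 4 were called higher and 6 lower in vehicle cells, and 4 higher and 7 lower in AG-120 cells, with medians of 0.13 and -0.04. EGR2, at 0.115 CPM in vehicle and 0.0327 in AG120, was called higher on both backgrounds. NR4A1, at 0.295 CPM in vehicle_Nutlin and 0.503 in AG120_Nutlin, was called lower. Each was tested mainly through the groups where it was higher, so the filter partly sets these counts. CYR61 fell from 357 to 83.7 CPM in vehicle cells (log2 -2.09, SE 0.12, edgeR adjusted p = 1.859e-08) and from 336 to 36.7 CPM in AG-120 cells. Of 14 factors known to act on PDGF genes, 5 were called higher and 7 lower in vehicle cells and 5 higher and 8 lower in AG-120 cells, with medians of -0.25 and -0.35. TP73, a p53 relative, went from 19.5 to 0.432 CPM in vehicle cells (log2 -5.55, SE 0.27, edgeR adjusted p = 2.608e-09). TP73 was at 0.406 CPM in AG120_Nutlin, and GLI1 at 0.0780 in vehicle_Nutlin and 0.0798 in AG120_Nutlin. Both had enough counts to be tested only through the groups without Nutlin, so the filter partly sets the count called lower. The NF-Y subunits, whose motif is marked in the receptor promoters above, did not move alike with Nutlin on either background. In AG-120 cells NFYB fell by 0.92 (SE 0.15, edgeR adjusted p = 2e-04) and NFYC rose by 0.88 (SE 0.11, edgeR adjusted p = 1.898e-05). In vehicle cells NFYB was called lower (-1.04) and NFYC higher (0.60). NFYA was called higher on both backgrounds, at 0.33 in vehicle cells and 0.31 in AG-120 cells.

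Over all 106 tested genes of the lists, 36 were called higher and 39 lower in each Nutlin response, 33 and 36 of them in both, with medians of -0.05 in vehicle cells and -0.11 in AG-120 cells. Most calls over all tested genes recurred likewise, with 7051 in both responses out of 8464 in vehicle cells and 8747 in AG-120 cells. For AG-120 without Nutlin edgeR called 0 of 106, with 10 at an unadjusted p under 0.05 and 0 by DESeq2. Over all tested genes these shares were 0.051%, 7.99% and 0.605%. With Nutlin, 2.36% of all tested genes were called, 0.433% higher and 1.93% lower. Of the 106, 5 were called, all lower in AG120_Nutlin than in vehicle_Nutlin. These were the immediate early genes CTGF (log2 -1.61, edgeR adjusted p = 0.0001259), CYR61 (-1.19), MYC (-1.25) and KLF6 (-0.48) and the ribosomal gene RPS14 (-0.68). CTGF (-1.85, edgeR adjusted p = 0.001464) and CYR61 (-1.10, edgeR adjusted p = 0.01459) were also called in the difference between the Nutlin responses, as PDGFRB was. That difference was called for 0.363% of all tested genes.

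**Figure D4:**
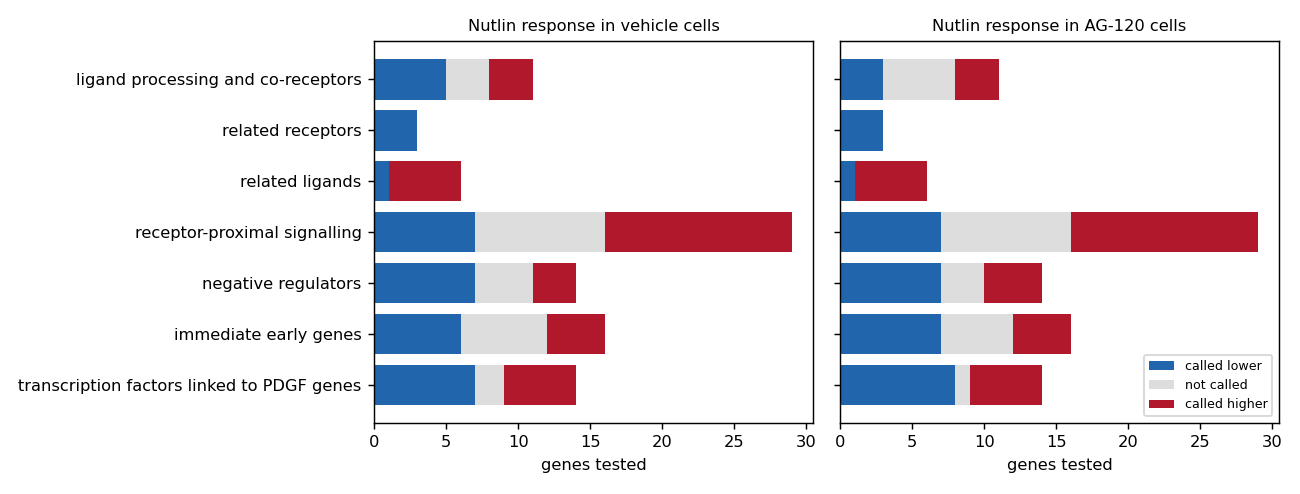
Number of tested genes called higher or lower in each list of PDGF-related genes, for Nutlin in vehicle cells (left) and in AG-120 cells (right). Related receptors have 3 of 3 called lower, a count partly set by the filter, and related ligands 5 of 6 called higher in both panels.

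The genes beside each receptor gene were read to see whether the receptor moved with its surroundings. On chromosome 4, 7 neighbours of PDGFRA were tested. Their AG-120 values ran from -0.12 to 0.24 without Nutlin and from -0.48 to 0.16 with it, with no call, while PDGFRA stood at -0.99 and -1.35. In the Nutlin responses PDGFRA lay within the range of its neighbours: SCFD2 was lower than it on both backgrounds (-0.63 and -1.02, against -0.56 and -0.92), CLOCK was also called lower (-0.42 and -0.42) and CHIC2 higher (0.77 and 0.53). On chromosome 5, CSF1R ends at 149492935, just before the PDGFRB entry, and was also lower with Nutlin. Of the 9 tested neighbours there, 4 were called lower and 2 higher in vehicle cells. CD74, which encodes the invariant chain of antigen presentation, fell by 1.96 (SE 0.16, edgeR adjusted p = 2.727e-07), and HMGXB3 and RPS14 rose, by 0.69 and 0.50. The PDGFRB value of -2.59 in this comparison was below that of every tested neighbour other than CSF1R, which was near the floor at 0.227 CPM in vehicle_Nutlin. In AG-120 cells 4 neighbours were called lower and 1 higher with Nutlin. PDGFRB, at -3.82, was there below all 9, with CSF1R at -2.57. For AG-120 without Nutlin these 9 neighbours ran from -0.21 to 0.46 with no call, and PDGFRB stood at 0.51. For AG-120 with Nutlin 1 of them, RPS14, was called lower (-0.68), as 1.93% of all genes were, and PDGFRB stood at -0.72.

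**Figure D5:**
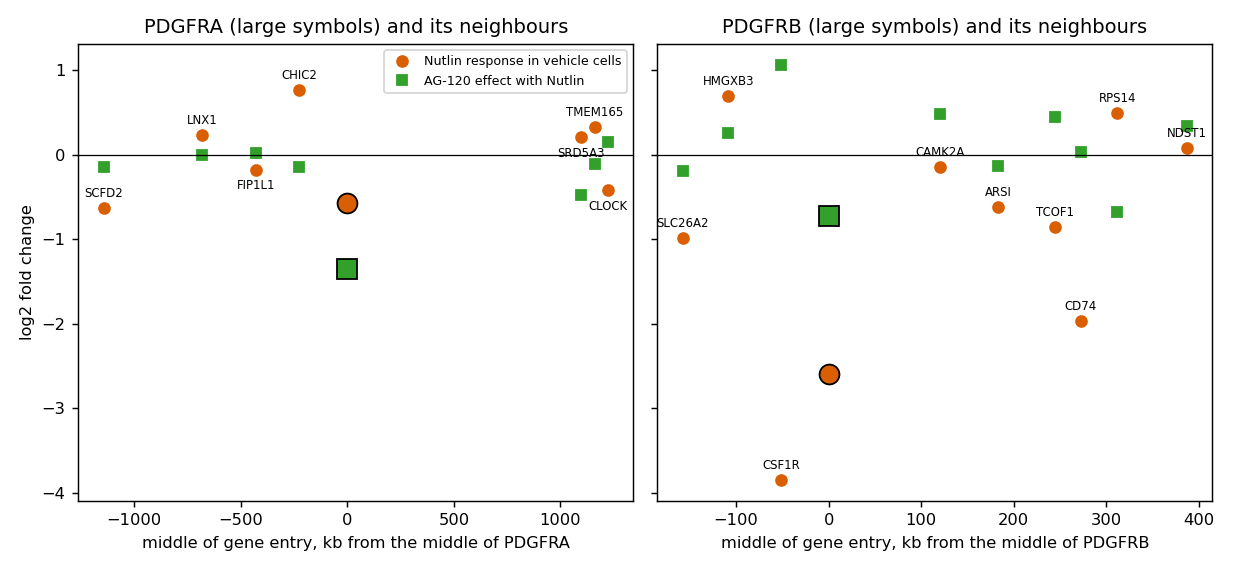
Log2 fold change of PDGFRA, PDGFRB (large symbols) and the tested genes beside them, against the distance in kb between the middles of the entries, for Nutlin in vehicle cells (circles) and AG-120 with Nutlin (squares). PDGFRA lies at -1.35 in the second comparison while its neighbours lie between -0.48 and 0.16, and CSF1R and PDGFRB are the lowest on the right in the first.

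The nearest profiles of each of the 6 genes were genes outside the family. Nearly all of the 13615 genes compared were outside it, so this says little about the family. Likeness was the root mean square (RMS) difference in log2 CPM over the 12 libraries, each gene centred on its own mean, among 13615 genes with at least 1 CPM. Within the family the closest pair was PDGFC and PDGFD at 0.620, and PDGFA and PDGFRB were furthest apart at 1.91. The measure depends on the size of changes as well as their direction. PDGFC and PDGFD went opposite ways with Nutlin in vehicle cells (-0.23, not called, and 1.18). Both fell with it in AG-120 cells (-0.53 and -1.04). PDGFRB was nearest to SYT12 (0.216), SLC7A5 (0.216) and AIF1L (0.242). PDGFB was nearest to SH2D3A (0.181), with PMP22 at 0.200, and PDGFRA to HRH1 (0.306), ASB9 (0.323) and RPL22L1 (0.332). PDGFA was nearest to ABCA2 (0.111), PER2 (0.145) and APC2 (0.149), and PDGFC to PYGB (0.0672), PPP6R3 (0.0785) and NRD1 (0.0794). PDGFD had the most distant nearest genes, BAAT (0.351), KCNJ16 (0.361) and BFSP1 (0.420). BAAT, which conjugates bile acids, had means of 4.93, 11.9, 15.2 and 8.15 CPM in vehicle, vehicle_Nutlin, AG120 and AG120_Nutlin.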

How the data were processed

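Poly(A) RNA of 12 RBE libraries was sequenced as paired reads, per the labels. The authors deposited 1 table of raw read counts per gene symbol with hg19 positions. Partek, STAR, HTSeq, DESeq2 and hg19 are named in the submitters' processing notes, without versions or roles, and strand handling is not given in the sources used here. Deposited stops were lowered by 1, since they fall just after the end of a gene.

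Counts were filtered with filterByExpr, scaled by TMM and fitted with edgeR 4.0.16 (limma 3.58.1, R 4.3.3) as 1 quasi-likelihood model of all 12 libraries with a term per group, with Benjamini-Hochberg adjustment over the 15691 tested genes. Intervals are at 95%. DESeq2 1.42.0, other scalings and filters, a replicate block, fitting the compared groups alone, and fits without single libraries, without 3 libraries (named from an earlier look) or without 2 (added after seeing the data) were the alternatives. The code was tested on simulated data. Replicates of each group differed beyond counting noise.

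The members and lists were chosen with earlier results of these data known. Named genes are the 6 members, MDM2 and CDKN1A, up to 4 called genes per list with the smallest adjusted p and a mean of 1 CPM or more in one of the groups, and the 3 nearest profiles of each member, of which 1 is not reported here. Genes named beyond that rule (FIP1L1, KIT, FLT1, KDR, FLT4, NFYA, NFYB, GLI1, HMGXB3 and single marker genes) were chosen after their values were seen. Protein sequences were not analysed here.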

Additional observations from a re-analysis of the deposited data

Results flagged for a closer look

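The difference between the Nutlin responses of PDGFRB is listed because the interaction term of the edgeR model was called for it. The log2 difference between the responses was -1.23, from a response of -2.59 in vehicle cells to -3.82 in AG-120 cells. The level went from 16.3 ± 0.597 to 2.70 ± 0.360 CPM in vehicle cells and from 23.1 ± 2.69 to 1.62 ± 0.190 CPM in AG-120 cells (mean ± SD, n = 3). The gene was picked with these results known, so the value is a description and no support for a difference in response. The call was made in 4 of the 12 fits that left out 1 library.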

How the results depend on the processing

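Of 624 recomputed member values, 546 kept their direction and side of the threshold, 31 lost a call, 39 gained one and 8 changed sign. None of the 8 was called: for AG-120 without Nutlin, PDGFB was 0.0160 without vehicle replicate 1, 0.0971 without AG120 replicate 1 0.0981 without 3 libraries (vehicle_Nutlin 2 and 3, AG120 1) and 0.0982 without 2 (vehicle_Nutlin 3, AG120 1, a choice made after seeing the data), and PDGFA was -0.137 without AG120 replicate 1, -0.141 without the 3 and -0.140 without the 2. PDGFA in the difference between the Nutlin responses was -0.174 without vehicle_Nutlin replicate 3. Over all fits without 1 library these 3 values ran from -0.168 to 0.0971 for PDGFB, from -0.137 to 0.416 for PDGFA and from -0.174 to 0.590 for PDGFA in the difference. The cause was not tested. The fit without the 3 libraries has 1 vehicle_Nutlin library, assumed to vary like the other groups.

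For AG-120 without Nutlin, 8 genes were called, against 95 by DESeq2, 104 with no filter, 13 with the 1 CPM filter, 29 with only the groups compared, 908 without the 3 libraries and 446 without the 2. Library totals gave 9 higher and 2 lower, against 8 and 0. Members called were 2 by DESeq2, 2 with no filter, 1 with only the groups compared, 3 without the 3 libraries and 2 without the 2, and 13 and 8 pathway genes were called without the 3 and the 2. Without single libraries the ranges were 1 to 241 genes, 0 to 3 members and 0 to 2 pathway genes. For AG-120 with Nutlin, 371 genes were called, against 850 by DESeq2, 1272 with no filter, 15 with only the groups compared, 1374 without the 3 libraries and 2151 without the 2. Members called were 1 with library totals and 0 with only the groups compared, and pathway genes were 9 with no filter, 3 with only the groups compared, 16 without the 3 libraries and 26 without the 2. The single-library ranges were 61 to 1037 genes, 0 to 3 members and 3 to 7 pathway genes. For the difference between the responses, 57 genes were called, against 203 by DESeq2, 283 with no filter, 637 without the 3 libraries and 782 without the 2. Members called were 2 by DESeq2, 2 with no filter, 2 without the 3 libraries and 3 without the 2, and pathway genes were 4 with no filter, 7 without the 3 and 8 without the 2. The single-library ranges were 23 to 243 genes, 0 to 2 members and 1 to 3 pathway genes. In the Nutlin responses they were 7283 to 9348 genes and 3 to 5 members in vehicle cells, and 7667 to 10312 genes and 4 to 6 members in AG-120 cells.

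The replicate number as a block gave 4 genes for AG-120 without Nutlin, 211 genes, 1 member and 3 pathway genes for AG-120 with Nutlin, and 32 genes for the difference. Over 18 pairs of same-numbered libraries the correlation of deviations ran from -0.224 to 0.116, with 1 over 0.1. These deviations showed no pairing by number, but with 3 libraries a group they cannot exclude it.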
